A study of Mus musculus with 10 samples.

Results

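The 10 mRNAs described here are Son, Nufip2, Klhl15, Arid1a, Zbtb10, Zc3h7b, Stag2, Ddx3x, Eif4g2 and Serbp1. They were taken by name from the genes that hold many crosslinking sites of the RNA-binding proteins Cirbp or Rbm3 in mouse embryonic fibroblasts, and they are 10 of the 22552 genes listed in the RNA-seq tables. The members were chosen by the number of these sites, a measured value, so site numbers, scores and sharing are given as a description with no test. mRNA levels, which come from other libraries and are not part of that rule of choice, were tested. Earlier results of these data were known when the members were chosen, so the choice was not made blind to the levels. Together the loci hold 79 Cirbp and 73 Rbm3 sites, 3.74% of the 4059 sites in both libraries.

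Sites were mapped by PAR-CLIP, in which cells take up the uridine analogue 4-thiouridine (here 100 µM for 16 h), protein and RNA are crosslinked, and RNA bound to the protein is recovered and sequenced. The fibroblasts stably expressed FLAG-tagged Cirbp or FLAG-tagged Rbm3 and an antibody to FLAG was used, with 1 library for each protein, so sites carry no replicate error and belong to the tagged proteins. The labels give culture at 37 °C and no cooling for these cells, so no sites were mapped at 32 °C here. RNA-seq of polyadenylated RNA covered 4 groups of 2 libraries: mock-transfected cells at 32 °C, cells transfected with siRNA to Cirbp at 37 °C (siCirbp), cells transfected with siRNA to Rbm3 at 37 °C (siRbm3), and mock-transfected cells at 37 °C. No group with a control siRNA is among the samples, so an effect of the target and a general effect of siRNA cannot be told apart. The labels do not say that libraries of a group are separate cultures, nor whether both libraries of an siRNA group received the same siRNA. The p-values then measure only the spread between these libraries.

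Cirbp and Rbm3 are closely related, small RNA-binding proteins with an RNA recognition motif and a glycine-rich tail. Their levels are known to go up when mammalian cells are cooled by a few degrees, and in fibroblasts they are known for binding mRNAs and for an influence on which polyadenylation site is used. The 10 mRNAs code for proteins of several kinds. Son, Nufip2, Zc3h7b and Serbp1 are RNA-binding proteins, Ddx3x and Eif4g2 act in translation, Arid1a, Stag2 and Zbtb10 act on chromatin or transcription, and Klhl15 is an adaptor of a ubiquitin ligase.

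The 8 RNA-seq libraries held an estimated 24.8 to 27.8 M mapped fragments. Of 8 fibroblast markers 7 were present, while Thy1 was listed at 0. Their summed level, in FPKM (fragments mapped to a transcript, divided by its length and by the size of the library), was 2694 and 2536 in the mock 32 °C libraries. The siCirbp libraries had 3087 and 2454, those labelled siRbm3 had 3999 and 6372, and the mock 37 °C libraries had 4615 and 4816. Summed markers of epithelium and endothelium stayed at or below 0.231 and 0.383 FPKM, and of the leukocyte markers only Cd68 was above 1 FPKM, with the defining markers Ptprc and Itgam at or below 0.0318. The leukocyte sum was 17.5 and 21.3 FPKM in the mock 32 °C libraries. The siCirbp libraries had 8.04 and 3.61 FPKM, those labelled siRbm3 had 7.62 and 15.8, and the mock 37 °C libraries had 10.4 and 10.1. In the targeted genes, Cirbp was at 10.8 and 6.07 FPKM in siCirbp, and at 15.9 and 17.1 in mock 37 °C (log2 fold change -0.94, limma adjusted p = 0.116). Rbm3 was at 5.54 and 7.55 FPKM in the siCirbp libraries, above both mock 37 °C libraries (1.31, limma adjusted p = 0.0588). Rbm3 was at 3.05 and 1.16 FPKM in the libraries labelled siRbm3, and at 1.85 and 2.21 in mock 37 °C, so replicate 1 of that label goes against it (log2 fold change -0.03, limma adjusted p = 0.971). Libraries of a group differed by a median of 0.313 (absolute log2 difference over genes) for the siRbm3 label, 0.261 for siCirbp, 0.107 for mock 32 °C and 0.0879 for mock 37 °C. The library labelled siRbm3 replicate 2 stood apart for these mRNAs: it was the lowest of the 8 libraries for 7 of the 10, against 18.2% of all tested genes, and the highest for Arid1a and Zc3h7b, against 27.9% of tested genes.

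A site was given to a gene where it overlapped a listed transcript by at least 1 nt. Only sites on the strand of most sites of that gene were then counted. By this count 1719 genes held a site, 1085 of them a single one, and 32 held 10 or more. The 10 mRNAs ranged from 10 sites (Zc3h7b) to 31 (Son), and 22 other genes also held at least 10. Among those others Srsf1, a splicing factor, had 22 sites, Syncrip 18, Ythdf2 15 and Sp3 14; Matr3, Etf1, Ythdf3, Zfp711 and Mll2 had 13 each. Hnrnpa2b1, Crebzf and Dyrk1a held 12 sites, Rap1b and Smg1 held 11, and Rc3h2, Bclaf1, 1810013L24Rik, Ddx5, Msl1, Spen, Zfp238 and Rbm15 held 10. Just outside that count were 9 genes with 9 sites. Son ranked 1 by sites of both proteins together, Nufip2 rank 3, Klhl15 rank 4 together with Syncrip, Ddx3x and Eif4g2 rank 7, Stag2 and Serbp1 rank 15, Arid1a and Zbtb10 rank 20 and Zc3h7b rank 24. The members' place therefore depends on the protein read: Arid1a and Klhl15 shared rank 3 for Rbm3, while Arid1a had no Cirbp site at all.

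The score of a site, a whole number from 1 to 1000, is the authors' own value with a scale not given in the sources used here, and it is used only to rank sites within a library. Coordinates are on mm9, counted from 1, and each site has a marked position of 1 nt, from which distances were measured. The deposited tables give the ends and the length of each transcript but not its exons, so sites in exons, introns and untranslated regions were not told apart. All 152 sites lay on the strand given for most sites of their gene, so the strand rule dropped none in these loci. For the 7 mRNAs found in a RefSeq promoter table that strand was the gene's own. None of the 10 loci overlapped another listed gene.

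Son, a nuclear speckle protein needed for efficient splicing, carried the most sites of any gene, 11 of Cirbp and 20 of Rbm3, at chr16:91648069-91679437 on the plus strand. Of the 31 sites 17 fell into a stretch of under 2000 nt, chr16:91655917-91657914, which held 14 Rbm3 sites and 3 Cirbp sites. The best-scoring Rbm3 site (685) was at chr16:91662872-91662906 and the best-scoring Cirbp site (548) at chr16:91657573-91657634. Rbm3 sites were thus concentrated in the upstream part of the locus, with the last stretch to the 3′ end nearly free of them. A shorter listed transcript ends at position 91663563: 19 of 20 Rbm3 sites and 6 of 11 Cirbp sites lay before that end, and beyond it were 5 Cirbp sites and 1 Rbm3 site.

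Serbp1, an mRNA-binding protein that associates with ribosomes, held 7 Cirbp and 5 Rbm3 sites at chr6:67216973-67239296 on the plus strand. Its 6 sites at chr6:67234065-67234349, 3 of each protein, included the best-scoring site of both proteins among the 10 mRNAs: 882 for Cirbp at chr6:67234162-67234211 and 863 for Rbm3 at chr6:67234065-67234108. All 5 Rbm3 sites and 5 of the 7 Cirbp sites overlapped a site of the other protein. No site lay close to the end of the locus, and the nearest mark was 5018 nt from the 3′ end of the locus.

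Nufip2, an RNA-binding partner of the fragile X protein FMRP, had 10 Cirbp and 9 Rbm3 sites at chr11:77499641-77531468 on the plus strand. They fell into separate groups of both proteins: 5 Cirbp and 4 Rbm3 sites stood at chr11:77505788-77506756, and the best-scoring sites of both proteins stood in a second group further downstream. These were a Cirbp site of score 593 at chr11:77523293-77523358 and an Rbm3 site of score 739 at chr11:77523553-77523599. Of its sites 5 Cirbp and 6 Rbm3 ones overlapped the other protein, and none was closer than 4900 nt to the 3′ end.

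Ddx3x, an RNA helicase of the DEAD-box family that acts in translation initiation, is a compact locus (chrX:12858148-12871109, plus strand) with 10 Cirbp and 4 Rbm3 sites. Of these 14 sites 12 (85.7%) lay within 2000 nt at chrX:12868680-12870529, the highest such share among the 10 mRNAs. The best-scoring Cirbp site (645) was at chrX:12869485-12869511, where an Rbm3 site had the same ends, and the best-scoring Rbm3 site (597) was at chrX:12870505-12870529. The locus ends close by, so 7 of the 14 marks were within 2000 nt of the 3′ end.

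Eif4g2, a relative of the scaffold Eif4g1 that supports cap-independent initiation and is also called DAP5, had 10 Cirbp and 4 Rbm3 sites at chr7:118211499-118226544 on the minus strand. Here the sites were spread out: the densest 2000 nt held 6 of 14, and the nearest mark to the 3′ end was 4172 nt away. A Cirbp site at chr7:118216076-118216107 and another in the same locus shared the highest Cirbp score, 572, and the best-scoring Rbm3 site, 460, was at chr7:118221995-118222025. Of the 4 Rbm3 sites 3 overlapped a Cirbp site. Zc3h7b, a CCCH zinc finger protein, had the sparsest pattern: 10 Cirbp sites and no Rbm3 site were scattered over chr15:81575278-81626699 on the plus strand, with no more than 2 in any 2000 nt. Its highest score, 382, was held by several sites, among them chr15:81575718-81575754.

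Stag2, a subunit of the cohesin ring that holds chromosome strands together, had 12 Cirbp sites and no Rbm3 site at chrX:39502589-39630352 on the plus strand. It is the longest of the loci, and 7 of its sites lay at chrX:39628642-39630143, all within 2000 nt of the 3′ end; the best-scoring one (752) was at chrX:39628642-39628666. Arid1a, the DNA-binding subunit of BAF-type SWI/SNF chromatin remodelers, was the reverse case by protein, with 11 Rbm3 sites and no Cirbp site at chr4:133234923-133309526 on the minus strand. Its sites stood at both ends of the locus: 7 near the 3′ end at chr4:133235887-133237640, with the best-scoring one (640) at chr4:133236827-133236853, and 4 within 2000 nt of the 5′ end. The mark of 1 of these 4 lay 24 nt before the listed 5′ end. Zbtb10, a BTB zinc finger transcription factor, held 2 Cirbp and 9 Rbm3 sites at chr3:9250567-9285332 on the plus strand, and no site was shared. Its Rbm3 sites stood mainly upstream, with 5 at chr3:9251198-9251819, a median of 1041 nt from the 5′ end, and the best-scoring one (650) at chr3:9264713-9264743, whereas the best-scoring Cirbp site (334) was at chr3:9283039-9283070.

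Klhl15, a Kelch protein that brings substrates to the ubiquitin ligase CUL3, had 7 Cirbp and 11 Rbm3 sites in its locus. Set against its longest listed transcript of 4001 nt, this was 4.5 sites per kb, the highest of the 10. That transcript ends at position 91501307 and does not reach 11 of the 18 sites. The value is therefore a count over the locus, not the density along 1 transcript, and its rank is uncertain. For the other 9 mRNAs this density ran from 1.35 (Arid1a) to 3.67 (Son) per kb. Of its 18 sites 11 stood at chrX:91517708-91518794, a median of 301 nt from the 3′ end of the locus (chrX:91480269-91518854, plus strand). The best-scoring sites of the 2 proteins overlapped there, with scores of 472 for Cirbp at chrX:91518230-91518273 and 862 for Rbm3 at chrX:91518218-91518268. Only the listed transcript of 2363 nt reaches this 3′ end. The other listed transcripts end at position 91501307, and the remaining 7 sites, 2 of Cirbp and 5 of Rbm3, lay before that end. All but 1 of these 7 formed a tight group with marks 17490 to 17706 nt from the 5′ end. Klhl15 thus had separate groups of sites of both proteins, with little between them.

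**Figure D1:**
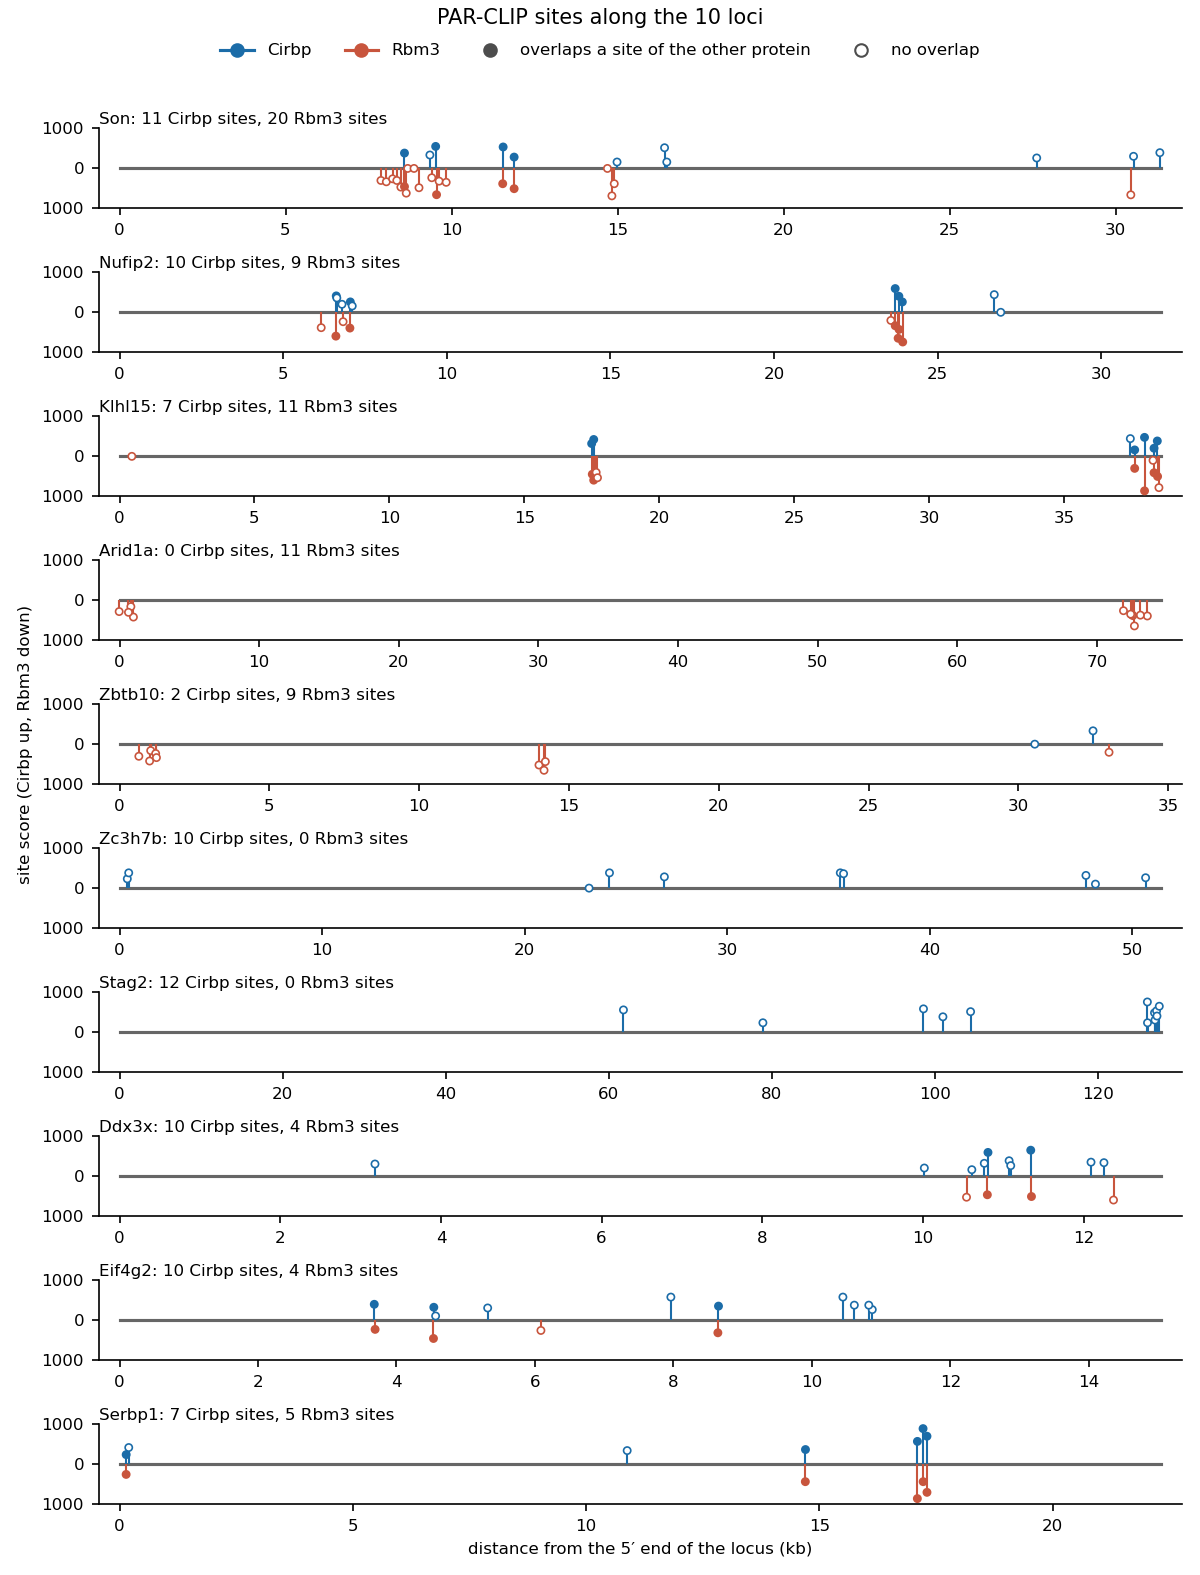
PAR-CLIP sites of Cirbp (up, blue) and Rbm3 (down, red) along each of the 10 loci, with the distance from the 5′ end of the locus in kb on the x axis and the authors' score on the y axis. Filled points overlap a site of the other protein and open points do not; Son shows 20 Rbm3 sites mostly in the upstream part, Stag2 shows 7 of its 12 Cirbp sites at the 3′ end, and Arid1a, Zc3h7b and Stag2 show sites of 1 protein only.

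Sharing between the proteins was uneven. Of the 10 mRNAs 6 held overlapping pairs of a Cirbp and an Rbm3 site, 26 pairs in all, with overlaps of 24 to 47 nt; 3 (Arid1a, Zc3h7b and Stag2) had sites of 1 protein only, and Zbtb10 had both without overlap. Over the 10 mRNAs 31.6% of Cirbp sites (25 of 79) and 35.6% of Rbm3 sites (26 of 73) were shared, against 16.4% and 15.0% of sites in other listed loci. The marks of a pair were at the same base in 7 of 26 pairs (26.9%), close to the share in all other pairs (28.8%, 100 of 347), and within 5 nt in 14 pairs. A locus with many sites of both proteins has more room for overlaps, and the members were chosen for their many sites, so nothing is read from these shares. Marks in the last 2000 nt of a locus made up 25.3% of Cirbp and 17.8% of Rbm3 sites in the 10 mRNAs, against 33.6% and 30.2% in other loci.

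The mRNAs with many sites were not simply the most abundant. Averaged over the 8 libraries, Eif4g2 stood highest at 137.6 FPKM, followed by Ddx3x (68.6), Serbp1 (58.2), Son (50.7), Stag2 (34.4), Zc3h7b (24.1), Arid1a (14.2), Nufip2 (10.7), Zbtb10 (5.67) and Klhl15 (3.0). FPKM are scaled by length, so these levels can be set beside each other. The range of Eif4g2 over the 8 libraries lay above those of all other members, whereas the ranges of later neighbours in this order overlapped. Read library by library, Son was above Stag2, Zc3h7b above Arid1a, Nufip2 above Zbtb10 and Zbtb10 above Klhl15 in all 8. Klhl15, with 18 sites, stood higher than only 11.9% of tested genes, and Eif4g2, with 14, higher than 96.8%. Across 1506 genes with a site and at least 1 FPKM, Spearman's rho of the number of sites was 0.170 with FPKM and 0.161 with transcript length, a description over genes that share the same libraries. The median FPKM of the members was 29.2, against 20.2 for genes with a site, and their median longest transcript was 7066.5 nt, against 3740.5 nt.

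**Figure D2:**
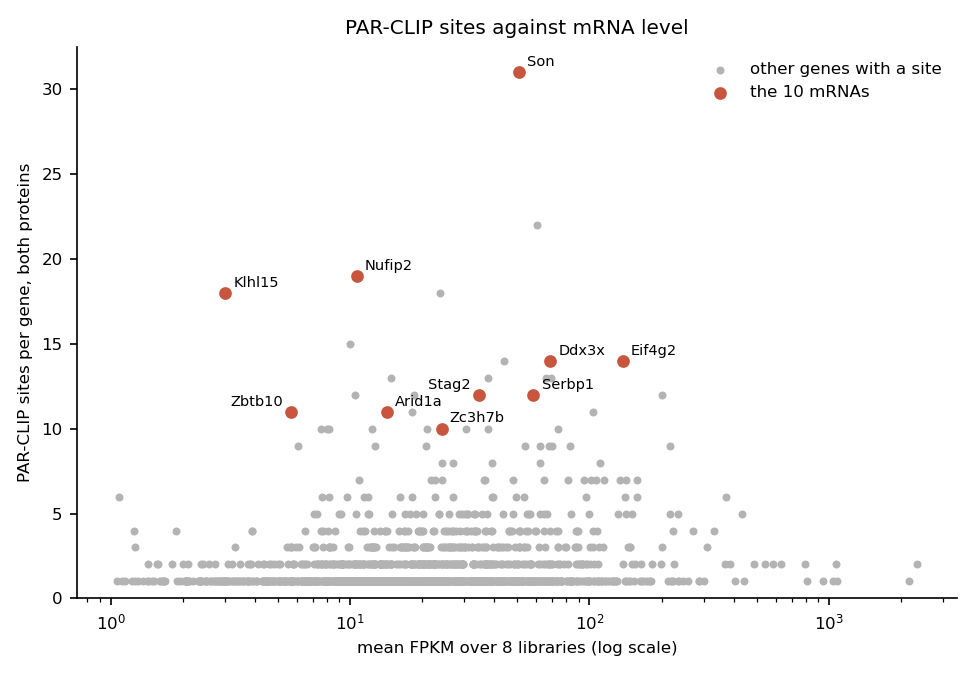
Number of PAR-CLIP sites per gene (both proteins, y axis) against the mean FPKM over the 8 libraries (x axis, log scale), with the 10 mRNAs in red and named and other genes with a site in grey. Klhl15 with 18 sites at 3.0 FPKM and Eif4g2 with 14 sites at 137.6 FPKM mark the range of levels.

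The first comparison asks how these mRNAs differ in fibroblasts kept at 32 °C, where Cirbp itself rose (log2 fold change 1.07, SE 0.30, limma adjusted p = 0.0313). Leaving out each mock library in turn ended that call every time (limma adjusted p 0.117 to 0.168). Rbm3 had 3.64 and 3.20 FPKM in mock 32 °C and 1.85 and 2.21 FPKM in mock 37 °C and did not pass (0.55, SE 0.30, limma adjusted p = 0.191). Arid1a and Zc3h7b fell at 32 °C, Serbp1 rose, and the other 7 did not pass the test. In this bulk RNA, fewer cells of a type and less RNA per cell cannot be told apart. The summed fibroblast markers were also lower in both mock 32 °C libraries than in both mock 37 °C libraries. Col1a1, Col1a2, Vim, Pdgfrb and Fn1 were lower, with Col1a1 at 194 and 177 FPKM against 675 and 775. Col3a1 (133 and 121 FPKM against 73.1 and 72.1) and Pdgfra (19.1 and 18.8 against 12.3 and 11.9) were higher. Cd68 was at 17.3 and 21.0 FPKM against 10.1 and 9.88. The part of these markers in the result was not tested. With 3 of 10 called, the share is near the background, since limma called 32.8% of the 10901 tested genes in this comparison, 13% higher and 19.8% lower. The median log2 fold change (on log2(FPKM + 1), as throughout) was 0.16 for the 10 mRNAs and -0.02 for all tested genes.

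Arid1a was at 6.08 and 5.28 FPKM in mock 32 °C, against 15.7 and 16.9 FPKM in mock 37 °C. Both cooled libraries lay far below the controls, and they were also below every siRNA library. Its log2 fold change was -1.37 (SE 0.20, n = 2 per group, limma adjusted p = 0.00459). The call was lost without mock 32 °C replicate 2 (limma adjusted p = 0.0596) and without mock 37 °C replicate 2 (0.0562), at log2 fold changes of -1.29 and -1.32. Zc3h7b was at 14.6 and 14.7 FPKM in mock 32 °C, against 23.0 and 26 FPKM in mock 37 °C, again with no overlap. Its log2 fold change was -0.70 (SE 0.18, limma adjusted p = 0.0242), and no call was made without any 1 of the 4 mock libraries (0.0942 to 0.160).

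Serbp1 went the other way, with 70.0 and 75.9 FPKM in mock 32 °C and 44.5 and 43.7 FPKM in mock 37 °C. Its log2 fold change was 0.71 (SE 0.15, limma adjusted p = 0.0128), a 1.64-fold difference, and it was not called without any 1 of the 4 mock libraries (0.0655 to 0.109). Ddx3x was nearly identical in the cooled libraries, at 93.5 and 93.5 FPKM, against 59.8 and 62.3 FPKM in mock 37 °C. These groups did not overlap either, but the fit takes its spread over all groups, and Ddx3x varied widely in the siRNA libraries: the log2 fold change of 0.61 had a 95% interval of -0.67 to 1.89 (limma adjusted p = 0.420). With only the 2 mock groups in the fit Ddx3x was called (limma adjusted p = 3.70e-04). That fit called 7557 genes, against 3573 with all groups in the fit. Nufip2 (limma adjusted p = 0.0375), Zbtb10 (0.0114) and Eif4g2 (0.0144) were also called in it, though not with all groups. Whether Ddx3x was called also changed when a library of the siRbm3 label was left out, and no call is read from those fits.

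Eif4g2 had 140.7 and 146.4 FPKM in mock 32 °C and 115.6 and 110.3 FPKM in mock 37 °C. Its log2 fold change of 0.34 (95% interval -0.12 to 0.80) did not pass, although the groups did not overlap. Zbtb10 had 5.93 and 4.95 FPKM in mock 32 °C and 7.33 and 7.07 FPKM in mock 37 °C. The value of -0.35 (95% interval -0.83 to 0.13) did not pass, and it was 0.05 with the trend with transcript length removed. Stag2 was the 1 mRNA whose groups overlapped, with 41.9 and 40.2 FPKM in mock 32 °C and 40.5 and 40.8 FPKM in mock 37 °C, and an interval of -0.71 to 0.74. Son (0.11), Nufip2 (0.23) and Klhl15 (0.21) lay above mock 37 °C in both libraries without passing. In all, 6 of the 10 mRNAs lay wholly above and 3 wholly below mock 37 °C, where 41% and 43.8% of tested genes did so.

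Transcript length moved with this comparison and with the siRNA comparisons against mock 37 °C. Across the tested genes, log2 fold changes at 32 °C were lower for longer transcripts (Spearman's rho -0.34 over 10901 genes, which are not independent). Against the same mock 37 °C libraries rho was -0.265 for siCirbp and -0.333 for the siRbm3 label, and it was -0.0066 for siCirbp against siRbm3. The longest transcripts of these mRNAs ran from 4001 to 10399 nt. With that trend removed, 5 of the 10 were called at 32 °C. Arid1a remained lower and Serbp1 remained higher. Son (0.56, limma adjusted p = 0.0173), Nufip2 (0.76, 0.0349) and Eif4g2 (0.76, 0.00761) were also higher. In that setting limma called 3361 of the 10901 tested genes, 1498 higher and 1863 lower. Zc3h7b was then at -0.38 and not called (limma adjusted p = 0.118). The part of length in the values was not tested beyond this.

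**Figure D3:**
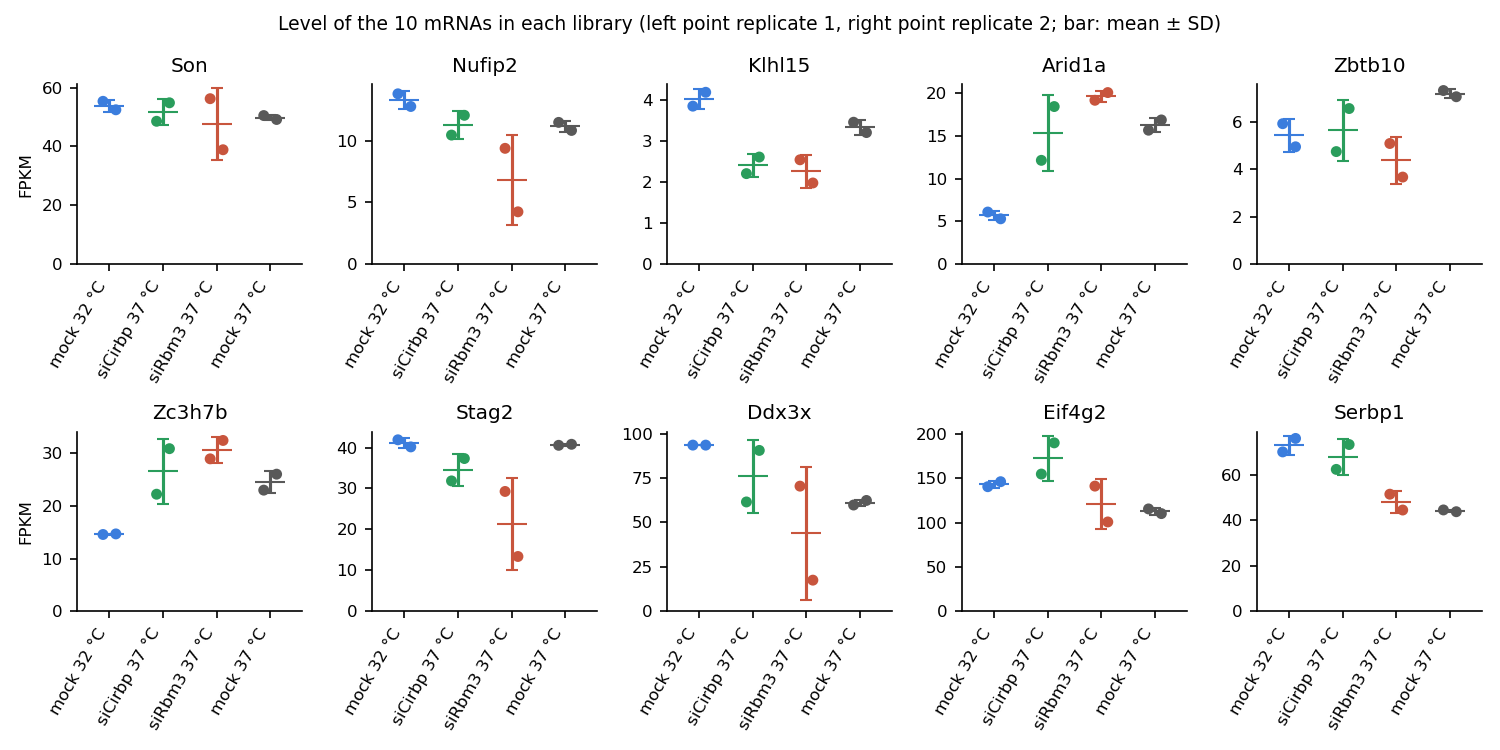
FPKM of the 10 mRNAs in each of the 8 libraries, with 1 panel per gene, groups on the x axis, points for libraries and a bar for the mean ± SD of 2. Arid1a and Zc3h7b are low in both mock 32 °C libraries, and the right-hand siRbm3 point is the lowest library for Son, Nufip2, Klhl15, Zbtb10, Stag2, Ddx3x and Eif4g2.

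The second comparison asks how the mRNAs differ after siRNA to Cirbp at 37 °C, and it shares its mock 37 °C libraries with the first. None of the 10 passed, where limma called 3.39% of tested genes, and 2 were below an unadjusted p of 0.05, where 2642 of the 10901 tested genes were. Serbp1 and Eif4g2 came nearest. Serbp1 had 62.3 and 73.3 FPKM in siCirbp and 44.5 and 43.7 FPKM in mock 37 °C, a log2 fold change of 0.60 (SE 0.15, 95% interval 0.25 to 0.96, limma adjusted p = 0.0703). Eif4g2 had 155.0 and 190.3 FPKM in siCirbp and 115.6 and 110.3 FPKM in mock 37 °C, a log2 fold change of 0.60 (SE 0.20, 95% interval 0.14 to 1.06, limma adjusted p = 0.122). Both siCirbp libraries lay above both controls for these mRNAs. Libraries of the siRbm3 label and of mock 32 °C enter these values only through the common spread. Whether Serbp1 and Eif4g2 were called changed with which of those libraries was left out, as did the count over all genes. No call is therefore read from those fits.

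Klhl15 had 2.20 and 2.60 FPKM in siCirbp and 3.45 and 3.20 FPKM in mock 37 °C (log2 fold change -0.35, 95% interval -0.73 to 0.04). Zbtb10, at 4.75 and 6.57 FPKM in siCirbp, and Stag2, at 31.8 and 37.3, also lay below both mock 37 °C libraries. For the other 5 mRNAs the groups overlapped, with log2 fold changes from -0.11 (Arid1a) to 0.29 (Ddx3x). Ddx3x differed between the siCirbp libraries, with 61.5 and 90.5 FPKM, so that 1 lay within the range of mock 37 °C and the other well above it. Thus 2 mRNAs lay wholly above and 3 wholly below the controls, where 38.5% and 21.9% of tested genes did. The median log2 fold change was 0.03 for the 10 mRNAs and 0.08 for all tested genes.

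In the libraries labelled siRbm3, also set against mock 37 °C, limma called 0% of tested genes and none of the 10 mRNAs; at an unadjusted p below 0.05 there were 1451 genes, 4 of them members. Stag2 had 29.3 and 13.4 FPKM in the siRbm3 libraries and 40.5 and 40.8 FPKM in mock 37 °C, a log2 fold change of -1.0 (SE 0.31, 95% interval -1.72 to -0.27, limma adjusted p = 0.35). Nufip2 had 9.41 and 4.24 FPKM in siRbm3 and 11.5 and 10.9 FPKM in mock 37 °C (log2 fold change -0.72, SE 0.29, limma adjusted p = 0.371). Both libraries of the label lay below the controls for these mRNAs, replicate 2 by far more than replicate 1. Ddx3x had 70.4 and 17.5 FPKM in siRbm3 and 59.8 and 62.3 FPKM in mock 37 °C, so that the replicates lay on opposite sides of the controls (log2 fold change -0.77, SE 0.55, limma adjusted p = 0.516).

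These values rest on replicate 2 of the siRbm3 label. Without replicate 1, the log2 fold changes were -1.75 for Ddx3x, -1.54 for Stag2 and -1.22 for Nufip2. The lone library is then assumed to vary like the other groups, so no call is read from this fit. Without replicate 2 the values were 0.20 for Ddx3x, -0.46 for Stag2 and -0.23 for Nufip2. Replicate 2 is also the library with the lower Rbm3 level of the label. Its Cirbp level was the higher one, 23.8 FPKM against 13.8 in replicate 1 and 15.9 and 17.1 in mock 37 °C. A link of either level with the values of these mRNAs was not tested. Zbtb10 (5.09 and 3.67 FPKM in siRbm3) and Klhl15 (2.54 and 1.97) lay below both mock 37 °C libraries too, with log2 fold changes of -0.62 and -0.42. Arid1a (19.2 and 20.1 FPKM in siRbm3) and Zc3h7b (28.9 and 32.4) lay above them, at 0.26 and 0.31. Thus 2 mRNAs lay wholly above and 4 wholly below mock 37 °C, where 37.2% and 13.3% of tested genes did. The medians were -0.25 for the 10 and 0.12 for all tested genes. Longer transcripts were lower in this comparison too (Spearman's rho -0.333), and the part of length in these medians was not tested.

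Set directly against the siRbm3 label, siCirbp gave no call among the 10, where 0.0367% of tested genes (4) were called, 0.0183% higher and 0.0183% lower; 4 members and 1654 genes were below an unadjusted p of 0.05. The log2 fold changes of siCirbp over siRbm3 were 1.06 for Ddx3x (95% interval -0.22 to 2.34), 0.77 for Stag2 (0.04 to 1.49), 0.73 for Nufip2 (0.04 to 1.42), 0.52 for Eif4g2 (0.06 to 0.98) and 0.49 for Serbp1 (0.14 to 0.84), with limma adjusted p from 0.252 to 0.382. All but Ddx3x among these lay higher in both siCirbp libraries than in both siRbm3 libraries, and Arid1a lay lower; 20.8% and 15.6% of tested genes did so. Without replicate 1 of the siRbm3 label, the values of these 5 mRNAs rose to 2.03 for Ddx3x, 1.30 for Stag2, 1.23 for Nufip2, 0.76 for Eif4g2 and 0.59 for Serbp1. That fit rests on 1 library of the label, so no call is read from it. The difference between the siRNAs is therefore tied to which library of the siRbm3 label is used. Median log2 fold changes were 0.40 for the 10 mRNAs and -0.00 for all tested genes.

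**Figure D4:**
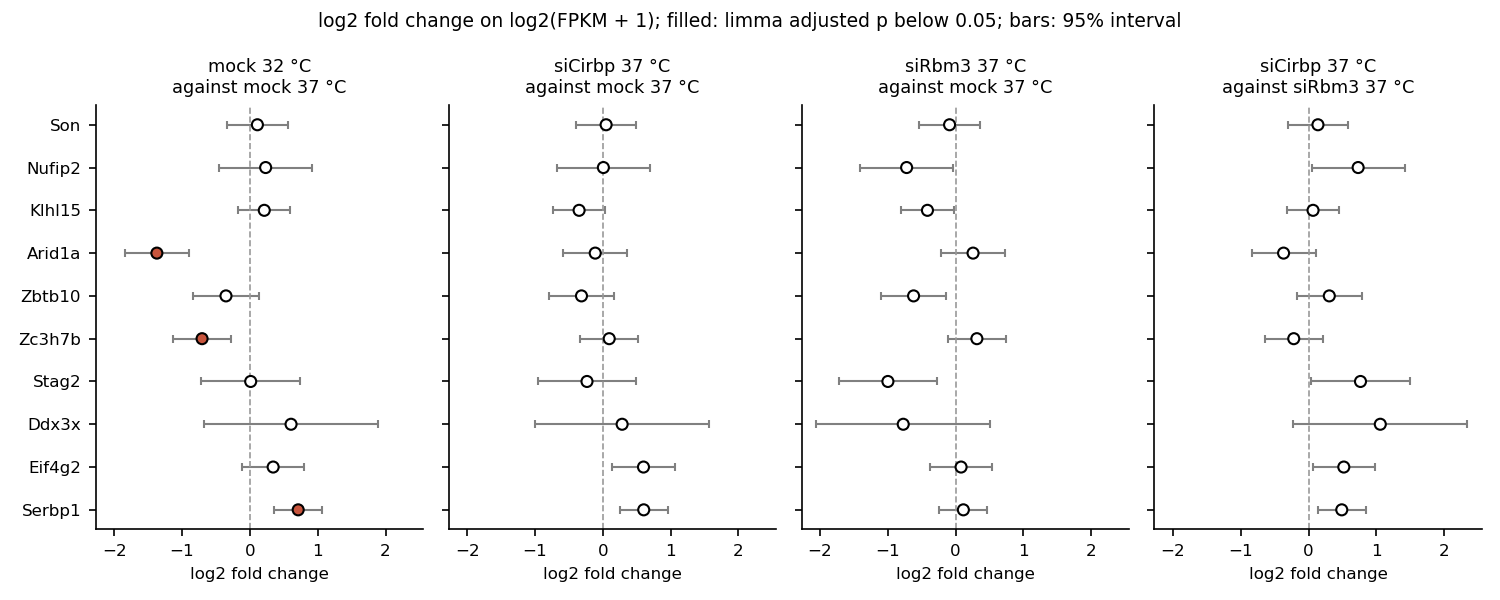
Log2 fold changes of the 10 mRNAs (on log2(FPKM + 1), x axis) in the 4 comparisons, with bars for the 95% interval and filled points for a limma adjusted p below 0.05. Filled points appear only for mock 32 °C against mock 37 °C, at -1.37 for Arid1a, -0.70 for Zc3h7b and 0.71 for Serbp1, and Ddx3x has the widest intervals.

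Levels of the listed transcripts give further detail and are a description, since the split of reads between transcripts was made by the authors' program. Eif4g2 has listed transcripts of 7646 and 7760 nt with the same ends, and the shorter one took 18.7% and 19.9% of Eif4g2 FPKM in mock 32 °C, 0.00% and 4.77% in siCirbp, 5.14% and 7.51% in siRbm3, and 6.48% and 9.22% in mock 37 °C. Its share was thus higher in both cooled libraries than in any other. The transcript of Stag2 of 5955 nt took 15.6% and 15.7% in siCirbp, and 8.0% and 10.4% in mock 37 °C. The shorter transcript of Son, whose end divides its sites, took 17.9% to 28.3% of Son FPKM, lowest in siCirbp (17.9% and 20.6%) against 25.2% and 28.3% in mock 37 °C. The transcript of Klhl15 of 2363 nt, the only one listed that reaches the 11 sites near the 3′ end, took 74.3% to 84.1% over the 8 libraries. Of the 4 transcripts of Serbp1 each took 16.6% to 34.8%, and the 1 of 6622 nt took 34.1% and 34.8% in siCirbp, and 27.8% and 28.1% in mock 37 °C.

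Ddx3x has close copies in the mouse genome, and how reads matching several places were counted is not given in the sources used here. Ddx3y, its Y-linked copy, stood at 1.68 to 13.8 FPKM and the retrogene D1Pas1 at 0.159 to 0.627 FPKM over the 8 libraries, below Ddx3x in the same tables.

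Partners of the 10 proteins, 108 genes in 10 lists of which 107 were tested, were read in the same fit. At 32 °C 30 of the 107 were called lower and 6 higher, against 19.8% and 13% of all tested genes. The median log2 fold change of these partners was -0.08 and -0.02 over all tested genes, and with median centring of the libraries, which moved the median of all genes to 0.11, it was 0.04 with 25 lower and 11 higher. With the length trend removed it was 0.03, with 26 lower and 8 higher.

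Arid1a fell together with other SWI/SNF subunits. Of 13 listed subunits 7 were lower at 32 °C and 1 higher (median log2 fold change -0.60). Smarca4, a catalytic ATPase of the complex, averaged 10.3 ± 0.18 FPKM in mock 32 °C and 25.5 ± 0.50 FPKM in mock 37 °C (SD, n = 2 each; log2 fold change -1.22, limma adjusted p = 0.00237), and the core subunit Smarcc2 averaged 23.8 ± 0.64 and 51.0 ± 0.61 FPKM in the same groups (-1.07, adjusted p = 0.00286). Median centring gave 5 lower and 2 higher, and removal of the length trend 4 lower and 1 higher with a median of -0.29. Of 10 CCCH zinc finger genes beside Zc3h7b 6 were lower and 0 higher (median -0.72), among them Zc3h4 (-1.19, limma adjusted p = 0.00237) and Zfp36l2, which promotes decay of AU-rich mRNAs (-0.90, 0.0101).

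Serbp1 rose at 32 °C. Of 8 other cytoplasmic mRNA-binding proteins and ribosome partners 5 fell and 1 rose (median -0.60), with the poly(C)-binding proteins Pcbp1 at -0.83 (limma adjusted p = 0.0112) and Pcbp2 at -0.73 (0.0215). Median centring gave 3 lower and 2 higher, quantile normalization 5 lower and 0 higher, and without any 1 of the 4 mock libraries none was called. In the list of translation initiation beside Eif4g2, 3 of 14 fell and 2 rose; the poly(A)-binding protein Pabpc1 was at -1.26 and the initiation repressor Eif4ebp2 at -0.85 (limma adjusted p = 0.00542 for both). Of 14 DEAD-box helicases beside Ddx3x 1 rose, Eif4a1, the helicase of the cap-binding complex (0.66, limma adjusted p = 0.0126). Among 8 splicing and nuclear speckle genes beside Son 3 fell, with Acin1 at -0.77 and Srrm2 at -1.10 (limma adjusted p = 0.0103 and 0.0108). The authors' tables mark the Acin1 estimate as failed in mock 32 °C replicate 2 and in both siRbm3 libraries, so its value is uncertain. With quantile normalization 5 of 14 initiation genes and 1 of 14 helicases were lower.

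Of 10 BTB zinc finger and Sp factors beside Zbtb10 3 fell, including Sp2 (-1.0, limma adjusted p = 0.00509) and Zbtb7a (-0.95, 0.00997). Of 9 genes of the CUL3 ligase beside Klhl15 2 fell and 1 rose, with the RING subunit Rbx1 at 0.93 (limma adjusted p = 0.0125) and the adaptor Keap1 at -0.54 (0.0271). Of 12 cohesin genes beside Stag2 1 fell, the ring subunit Rad21 (-0.62, limma adjusted p = 0.0129), and of 9 FMRP and stress granule genes beside Nufip2 none was called, with a median of 0.01 (1 was lower with quantile normalization). The medians of 6 lists turned sign with the scaling. Under median centring the initiation list was at 0.06 (-0.07 without it), splicing at 0.05 (-0.08), cohesin at 0.08 (-0.04) and the BTB and Sp factors at 0.01 (-0.12). Under quantile normalization the CUL3 list was at -0.04 (0.02 without it) and the FMRP list at -0.01 (0.01). These calls rest on all 4 mock libraries: without 1 of them, 3 to 8 of the 107 partners were called at 32 °C, all lower, and of the 16 genes named only Smarca4, Smarcc2 and Zc3h4 were called whichever library was left out.

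After siRNA to Cirbp 3 of the 107 partners rose and none fell, against 2.77% and 0.624% of tested genes. They were the SWI/SNF subunit Actl6a (log2 fold change 0.81, limma adjusted p = 0.0476), the mRNA export helicase Ddx39b (0.81, 0.0431) and the cold shock domain protein Ybx1 (0.78, 0.0367). Of these Ybx1 averaged 46.8 ± 4.2 FPKM in siCirbp and 26.9 ± 0.45 FPKM in mock 37 °C (SD, n = 2 each). With the length trend removed, or with only the 2 groups in the fit, none of the 107 was called, and without 1 library at a time the count of partners called ran from 0 to 19. Against the siRbm3 label and in that label against mock 37 °C 0 of the 107 were called. Both counts changed with the library left out. In that label against mock 37 °C the median log2 fold change of the 107 was -0.005. It was -0.07 without replicate 1 of the label and 0.10 without replicate 2.

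The profiles most like those of the 3 mRNAs with most sites were read over the 8 libraries, as Pearson's r of log2(FPKM + 1) against genes with a mean of at least 5 FPKM. Nearest to Son were Rabep1 (0.986) and Zmym4 (0.982), nearest to Nufip2 were Kif5b and Zfp53 (0.995 each), and nearest to Klhl15 were Kif3a (0.982) and Thnsl1 (0.979). Of the other members, Ddx3x was closest to Son (0.942) and Stag2 closest to both Nufip2 (0.977) and Klhl15 (0.760). For all 3 mRNAs the lowest value was in replicate 2 of the siRbm3 label. It enters these correlations, and its part in them was not tested.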

How the data were processed

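The deposited levels are FPKM computed by the authors, in Cufflinks-style tracking tables with 28702 transcripts of 22552 genes. Reads of 76 nt were mapped to mm9, and TopHat 1.1.2 is named, per the submitters' processing notes. The version of Cufflinks, the annotation and the site caller are not given in the sources used here. The deposited coverage column (mean read depth per base), divided by FPKM, gave the fragments per library. The deposited PAR-CLIP score runs from 1 to 1000.

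FPKM were summed per gene as listed; no member or targeted gene had a failed or low-data status, and 4 of 108 partners did in some library. A model with 4 group means was fitted to log2(FPKM + 1) with limma 3.58.1 (R 4.3.3), 4 residual degrees of freedom and the trend and robust options, for the 10901 genes with a mean of at least 1 FPKM. Two-sided p-values were adjusted over these genes by the Benjamini-Hochberg method, with a threshold of 0.05, and the fit was tested on simulated data. Depth sets the precision: the 10 mRNAs had about 127 (Klhl15) to 40965 (Eif4g2) reads per library. Sites overlapping a site of the other protein on the same strand by at least 1 nt count as shared. Where the fit leaves out a library, the others stay.

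The members and partner lists were chosen with earlier results of these data known. Named are the 10 members, the targeted genes, up to 2 called partners per list and comparison by adjusted p, the 2 nearest profiles for the 3 members with most sites, and genes with at least as many sites as Zc3h7b. Alternatives were the pseudocount, the filter, scaling, the highest transcript, a replicate block, 2-group fits, leaving out each library, removal of a length trend, and 3 settings for sites.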

Additional observations from a re-analysis of the deposited data

How the results depend on the processing

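At 32 °C 3 mRNAs were called; the count was 0 with no filter on low values, 7 with only the 2 groups compared, 5 with the length trend removed, and 0 to 4 without 1 library at a time. In siCirbp it was 0, and 1 (Serbp1) with the highest transcript only (limma adjusted p = 0.0490) or the length trend removed (0.0434), and 0 to 2 without 1 library. For the siRbm3 label the range without 1 library was 0 to 3, and for siCirbp against siRbm3 0 to 5. Counts over all genes moved with the setting too. At 32 °C they were 3573 in the main fit, 60 with no filter, 7557 in the 2-group fit and 3361 with the length trend removed. A higher count of members in a setting is therefore not read as evidence about the members. The highest counts for the siRbm3 label and for siCirbp against siRbm3 came from the fit with only replicate 2 of that label. No call is read from that fit. The causes were not tested beyond what each setting changes. A pairing by replicate number was not assumed: same-numbered libraries correlated in their deviations at 0.0914, -0.0490, 0.0232 and -0.153 in the 4 comparisons. With a replicate block 3, 0, 0 and 0 members were called, and of all genes 3183, 3, 0 and 3, against 3573, 370, 0 and 4 without it; Cirbp at 32 °C was lost (limma adjusted p = 0.0555), and of the 107 partners 0 were called in siCirbp, against 3. Crossed pairing, added after seeing the data, called 0 members and 4 genes between siCirbp and siRbm3.

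Signs turned only for values that were not called (log2 fold changes, with the lowest and highest value without 1 library). At 32 °C these were Zbtb10 (0.053, length trend removed), Stag2 (-0.030 with quantile normalization, and -0.018 to 0.042) and Rbm3 (-0.67 with the highest transcript). In siCirbp they were Son (-0.019 with median centring, -0.10 with quantile normalization, and -0.037 to 0.14), Nufip2 (-0.060 with either, and -0.085 to 0.10), Arid1a (0.075 with the length trend removed, and -0.39 to 0.17) and Zc3h7b (-0.0059 with quantile normalization, and -0.13 to 0.32). With the siRbm3 label they were Son (0.054 with the length trend removed, and -0.35 to 0.17), Ddx3x (-1.75 to 0.20), Eif4g2 (-0.14 with quantile normalization, and -0.16 to 0.32), Serbp1 (-0.040 with quantile normalization), Cirbp (-0.090 with the length trend removed, and -0.24 to 0.50) and Rbm3 (0.026 with quantile normalization, 0.11 with the highest transcript, and -0.48 to 0.42). For siCirbp over siRbm3 they were Son (-0.12 to 0.40), Klhl15 (-0.059 to 0.19) and Zc3h7b (-0.45 to 0.011).

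Counts of all genes at 32 °C were 60 with no filter, 7557 in the 2-group fit and 395 to 5071 without 1 library; 1420 were higher and 2153 lower, against 2110 higher and 1721 lower after median centring, while quantile normalization gave 1893 higher and 1994 lower. In siCirbp they were 43 with no filter, 217 with the highest transcript, 13 in the 2-group fit, 103 with the length trend removed and 4 to 1612 without 1 library. For the siRbm3 label they were 35, 2, 5, 1 and 0 to 951 in the same settings, and between siCirbp and siRbm3 43, 5, 7, 4 and 4 to 2132. Of the sites, 54 Cirbp and 50 Rbm3 ones had at least the median score of their library. With only 2 libraries per group and 1 per protein, depth limits the site counts by an unknown amount.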

Other observations

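Among the 32 genes with at least 10 sites, Zfp711, an X-linked zinc finger gene, was the only one below 1 FPKM. It held 7 Cirbp and 6 Rbm3 sites, 3 of each shared with the other protein, and it was listed at 0 FPKM in all 8 RNA-seq libraries, with no failed status in the authors' tables. Of 1717 listed genes with a site, 58 were listed at 0 in all libraries (57 of them with no failed or low-data status) and 211 (12.3%) had a mean below 1 FPKM. The earlier count of genes with a site was 1719, and the difference was not examined. Genes were counted here by overlap with a site, on the strand of most sites. Whether that strand was the gene's own, or another listed gene overlapped, was not tested for these genes. The counts therefore do not show that RNA of these genes was bound. Srsf1, which ranked next to Son with 14 Cirbp and 8 Rbm3 sites, had 7 shared sites of each protein.

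Of the 152 sites in the 10 loci 7 had the lowest score, 1, namely 3 Rbm3 sites of Son, 1 Rbm3 site of Klhl15 and 1 Cirbp site each of Nufip2, Zbtb10 and Zc3h7b. Overlapping pairs with the same start and end for both proteins numbered 4.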
